A study of Mus musculus with 2 samples.

Results

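The Notch ligand genes Dll1, Dll3, Dll4, Jag1 and Jag2 and the gene Mfng, which encodes Manic fringe, were followed through the cell classes of the embryonic mouse eye cup. They were chosen by gene symbol, and each of the 6 symbols matched 1 of the 31053 genes measured. Single-cell libraries of 2 genotypes were compared at e15.5, with 3 pooled eye cups and 1 library per genotype. Control embryos were Myrf fl/fl, with loxP sites in each Myrf allele and no Cre. Mutant embryos were Rx>cre Myrf fl/fl and had, beside the same floxed alleles, Cre driven by Rx regulatory sequence that is active in the early eye field. The floxed alleles are thus common to both groups, and the study used the pair to ask what the loss of MYRF, a transcription factor of the retinal pigment epithelium, does to the developing eye. Cornea, lens and optic nerve had been dissected away before dissociation, and few surface cells remained.

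Notch signalling passes between touching cells. A ligand of the Delta or Jagged family on one cell activates a Notch receptor on its neighbour, the receptor is cleaved, and its intracellular part joins the DNA-binding protein RBPJ to switch on repressors of the Hes and Hey families. In the embryonic retina this keeps neighbouring progenitors dividing while a cell that makes ligand, under proneural factors such as Neurog2 and Atoh7, leaves the cycle and becomes a neuron. Dll1 and Dll4 encode activating Delta ligands, Dll3 encodes a divergent Delta protein that acts mostly inside its own cell, Jag1 and Jag2 encode Jagged ligands, and Fringe enzymes such as Mfng add sugars to Notch that change how it responds to the ligands. In blood vessels Dll4 marks the tip cells of sprouts.

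In GRCm38 Dll4 and Jag1 share chromosome 2 and each of the other genes lies on its own chromosome. Dll1 (ENSMUSG00000014773) spans chr17:15367354-15376872 on the minus strand and Dll3 (ENSMUSG00000003436) chr7:28293553-28302238 on the minus strand. Dll4 (ENSMUSG00000027314) spans chr2:119325784-119335962 on the plus strand and Jag1 (ENSMUSG00000027276) chr2:137081456-137116644 on the minus strand. Jag2 (ENSMUSG00000002799) spans chr12:112907819-112929776 and Mfng (ENSMUSG00000018169) chr15:78755882-78773475, both on the minus strand. The 250 bases upstream of annotated start sites of Dll1 (its second RefSeq entry) and Dll4 are shown because both ligands were high in the same class of cells described next, and E-boxes are the letters that proneural factors bind. Sequences are from RefSeq (GRCm38.p6), 5′ to 3′ on the gene's strand, upstream of the gene with no annotated exon of it inside. Capitals mark matches to the E-box CANNTG or to the RBPJ core TGGGAA on either strand.
Dll1 (chr17:15376933-15377182, minus strand): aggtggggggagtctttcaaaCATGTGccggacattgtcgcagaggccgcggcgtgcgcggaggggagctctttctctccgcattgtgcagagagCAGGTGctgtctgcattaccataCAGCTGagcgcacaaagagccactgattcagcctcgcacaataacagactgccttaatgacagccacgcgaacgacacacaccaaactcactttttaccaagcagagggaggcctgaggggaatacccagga
Dll4 (chr2:119325534-119325783, plus strand): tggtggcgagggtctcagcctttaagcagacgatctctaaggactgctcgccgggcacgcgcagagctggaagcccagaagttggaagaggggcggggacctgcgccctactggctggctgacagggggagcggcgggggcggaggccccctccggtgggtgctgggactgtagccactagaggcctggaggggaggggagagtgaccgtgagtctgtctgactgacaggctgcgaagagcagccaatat
The Dll1 window held 3 E-boxes, 1 of them CAGCTG, and the Dll4 window held none. Among 32851 promoter windows of the same length, 66.2% held CANNTG, 13.0% held CAGCTG, 14.4% held CAGATG on either strand, 3.46% held CATATG and 21.6% held TGGGAA. Both windows lacked the other words searched. The 3 full E-box words are also counted as CANNTG. Such matches describe the letters only.

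The libraries held 132436812 UMIs (unique molecular identifiers, each standing for 1 captured transcript) in 13017 control barcodes and 135678970 UMIs in 13880 mutant barcodes. After filtering, 11576 control and 12623 mutant cells remained, with medians of 9824 and 8949 UMIs. Cells fell into 33 clusters, of which those with clear markers were given class names ending in "-like", and 24.3% of control and 23.8% of mutant cells stayed unnamed. The libraries shared 69 barcodes, 59 of them kept. Myrf itself was at 76.4 CPM (UMIs of a gene per 1000000 UMIs of its class) in control and 30.3 CPM in mutant retinal pigment epithelium-like cells, a ratio of 0.397. Y-linked UMIs were found in 41.8% of mutant and 0.0259% of control cells, so embryo sex and genotype cannot be told apart over all cells, and values are also given for the cells that carry Xist but lack Y-linked UMIs. With 1 library per genotype no test between genotypes was possible, and every interval given is a 95% interval for counting error only. One tag near the 3′ end is counted per transcript, so CPM is not scaled by gene length.

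Among the named classes Dll1, Dll3, Dll4 and Mfng shared a peak in neurogenic progenitor-like cells, whose naming markers include Atoh7, Neurog2 and Hes6. Jag1 and Jag2 were low there and peaked outside the neural retina. This split was seen in both libraries. The neurogenic class held 658 control and 983 mutant cells, in clusters 0, 8 and 26. None of the 6 genes was used to cluster or to name the cells.

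Dll1 stood at 114 CPM (106 to 122) in control and 106 CPM (99.6 to 112) in mutant neurogenic progenitor-like cells. That was 16.1-fold (14.6 to 17.8) above all other cells of the control library and 11.3-fold above those of the mutant library. In the mutant library surface epithelium-like cells came next, at 22.7 CPM. In the control, next were amacrine-like cells at 22.6 CPM, photoreceptor precursor-like cells at 18.5 CPM and retinal progenitor-like cells at 17.0 CPM, whose intervals overlapped one another. Dll1 was also found in muscle and vessels, with 14.9 CPM in control and 11.1 CPM in mutant muscle-like cells and with 11.5 and 8.74 CPM in endothelial-like cells. It reached 5.13 and 6.89 CPM in retinal ganglion cell-like cells, and 0.525 and 0.590 CPM in erythroid-like cells, taken here as a measure of free RNA. That use of erythroid-like cells was not tested.

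Dll4 had the narrowest pattern of the Delta genes. It measured 110 CPM (102 to 117) in control and 100 CPM (94.1 to 106) in mutant neurogenic progenitor-like cells, 48.5-fold (42.1 to 56.0) and 40.9-fold (35.8 to 46.9) above all other cells. That class held 75.7% of all control and 79.2% of all mutant Dll4 UMIs while contributing 6.05% and 8.53% of all UMIs. The second site was endothelial-like cells, at 48.5 CPM in control and 59.3 CPM in mutant, and its interval lay clear of every lower class in each library. Retinal progenitor-like cells held 1.72 and 1.38 CPM and retinal ganglion cell-like cells 0.293 and 0.226 CPM, so the level was low on either side of the neurogenic class.

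Dll3 had 2 sites of nearly the same level. It measured 169 CPM (159 to 178) in control and 182 CPM (174 to 190) in mutant neurogenic progenitor-like cells, and 161 CPM (146 to 178) and 177 CPM (164 to 192) in photoreceptor precursor-like cells, the class with Crx and Otx2. The intervals of these classes overlapped in each library. Amacrine-like cells followed at 26.7 and 34.9 CPM, retinal ganglion cell-like cells at 17.3 and 16.9 CPM, and retinal progenitor-like cells at 13.1 and 14.8 CPM. Dll4 did not share the second site, with 9.45 CPM in control and 12.1 CPM in mutant photoreceptor precursor-like cells.

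Mfng was the most widely spread of the neural genes. It measured 146 CPM (138 to 155) in control and 146 CPM (138 to 153) in mutant neurogenic progenitor-like cells, only 7.42-fold and 6.46-fold above all other cells. Endothelial-like cells held 125 CPM in control and 116 CPM in mutant, which overlapped the neurogenic interval in the control library and not in the mutant. Retinal ganglion cell-like cells held 76.4 and 69.5 CPM, amacrine-like cells 56.4 and 41.2 CPM, photoreceptor precursor-like cells 35.4 and 36.3 CPM, and immune-like cells 21.9 and 27.7 CPM.

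Jag1 and Jag2 lay in surface and vascular cells. Jag1 was highest in the control library in surface epithelium-like cells, at 75.1 CPM (61.8 to 90.6), followed by pericyte-like cells at 63.6 CPM (56.7 to 71.2), whose interval overlapped it, and by endothelial-like cells at 31.7 CPM. In the mutant library pericyte-like cells led instead, at 66.9 CPM (59.4 to 75.2). Schwann precursor-like cells, with only 38 control and 39 mutant cells, held 49.6 and 49.2 CPM. Jag2 measured 47.8 CPM (37.3 to 60.4) in control and 64.0 CPM (53.1 to 76.4) in mutant surface epithelium-like cells and 28.6 and 36.2 CPM in endothelial-like cells. Retinal ganglion cell-like cells followed for Jag2, at 9.97 and 9.48 CPM. In neurogenic progenitor-like cells Jag1 reached 7.79 and 4.98 CPM, from 57 and 53 UMIs, and Jag2 0.547 and 0.939 CPM, from 4 and 10 UMIs.

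**Figure D1:**
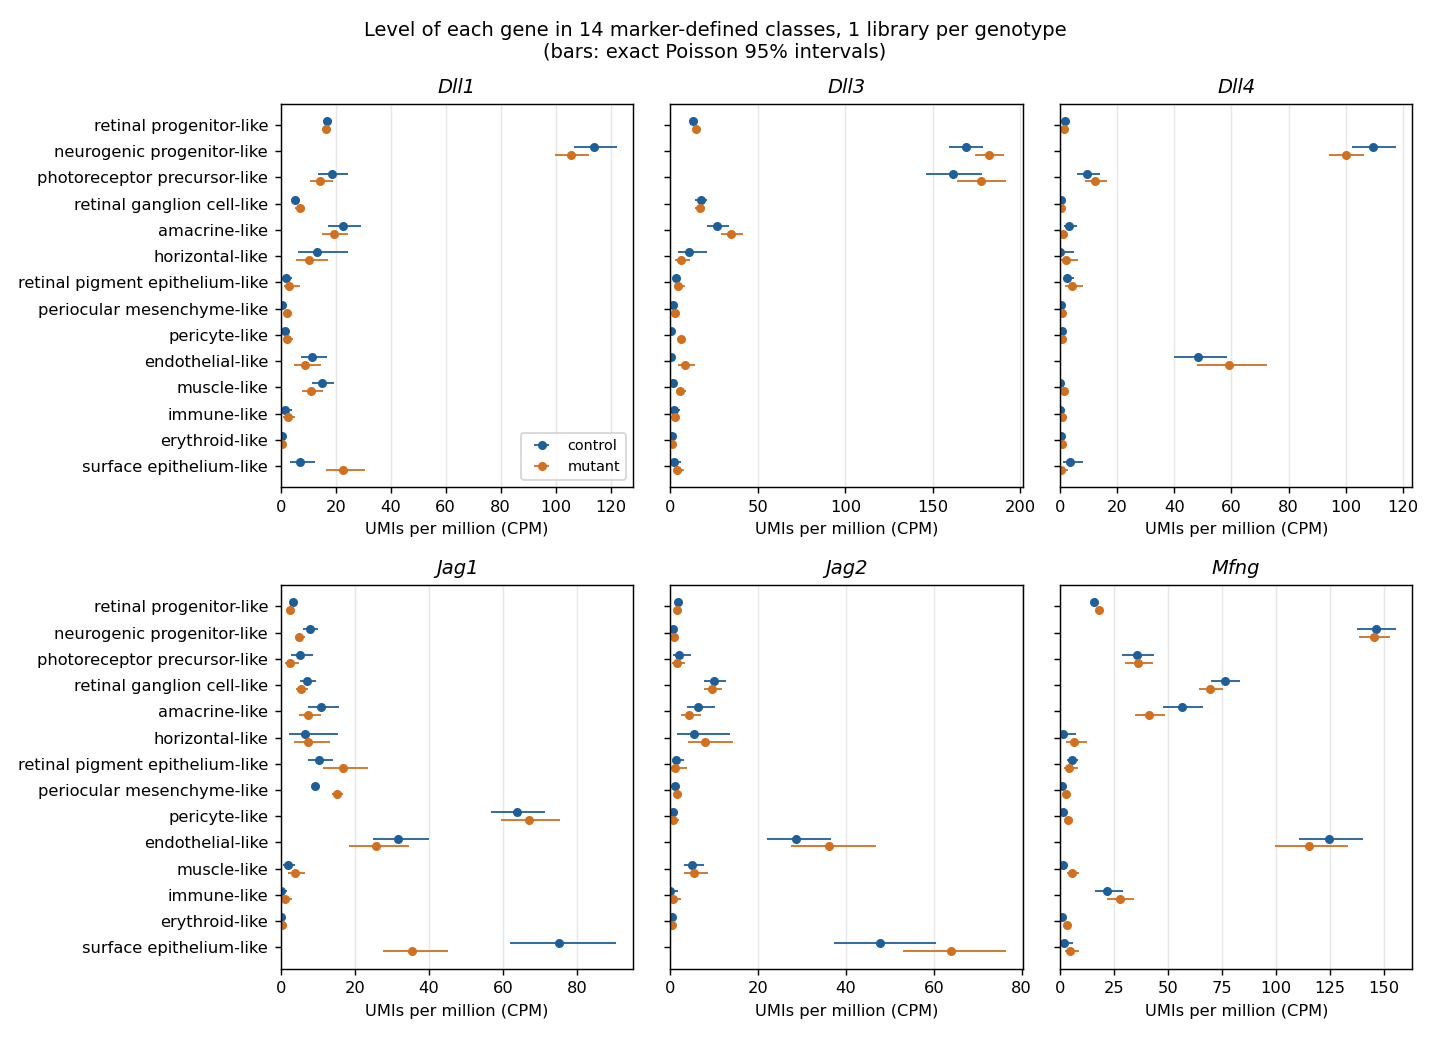
Level of each gene, in CPM (horizontal axis, scaled separately for each gene), in 14 marker-defined classes of the control (blue) and mutant (orange) library, with exact Poisson 95% intervals. Dll1, Dll3, Dll4 and Mfng are high in neurogenic progenitor-like cells, Dll3 also in photoreceptor precursor-like cells, Dll4 and Mfng also in endothelial-like cells, and Jag1 and Jag2 in surface epithelium-like and vascular cells.

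The share of cells with at least 1 UMI of a gene was compared after each cell was thinned to 2000 UMIs, since deeper cells show more genes. Of the neurogenic progenitor-like cells, 28.4% of control and 31.3% of mutant cells then held a Dll3 UMI, 26.8% and 26.9% an Mfng UMI, 19.4% and 17.5% a Dll4 UMI, and 16.9% and 19.5% a Dll1 UMI. Without thinning, at medians of 10460 and 10056 UMIs, these shares were 67.5% and 69.4% for Dll3, 73.7% and 72.7% for Mfng, 47.4% and 46.4% for Dll4, and 59.1% and 58.1% for Dll1. In erythroid-like cells, at medians of 16826 and 16802 UMIs before thinning, no member exceeded 0.741% after it. Jag2 was found in 1 of 649 control cells and in 0 of 970 mutant cells of the neurogenic class at that depth. Without thinning it was found in 0.608% (0.166 to 1.55) of control and 1.02% (0.489 to 1.86) of mutant cells, against 0.626% and 0.714% of erythroid-like cells, so Jag2 there was not told apart from free RNA.

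Within the neural retina the 4 genes were all high in the neurogenic clusters and differed outside them. Of the 4 retinal progenitor-like clusters, cluster 22, led by the mitotic genes Ccnb2 and Cdc20, held Dll1 at 27.4 CPM in control and 19.7 CPM in mutant, and cluster 18, led by Ung, held it at 24.5 and 22.7 CPM. Cluster 6, also led by mitotic genes (Cenpf, Ube2c and Plk1), held only 11.2 and 11.1 CPM of Dll1, and cluster 19, led by histone genes, 8.40 and 12.5 CPM. Mfng in cluster 22 was at 16.6 CPM in control and 26.3 CPM in mutant, a ratio of 1.59 (1.15 to 2.21). Dll4 did not exceed 2.62 CPM in any of these 4 clusters. In neurogenic clusters 26, 8 and 0, Dll1 was at 117, 112 and 116 CPM in control and at 98.7, 115 and 96.3 CPM in mutant.

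Dll3 and Mfng were uneven among the neurogenic clusters. Dll3 measured 124 CPM in control and 142 CPM in mutant cells of cluster 8, which was led by Neurog2, Olig2 and Sstr2. In cluster 0, whose leading genes included Dll3 itself, Btg2, Neurod1 and Neurod4, it measured 257 and 285 CPM. Mfng measured 108 and 112 CPM in cluster 8 against 207 and 195 CPM in cluster 0. In cluster 26 Dll3 measured 153 and 137 CPM and Mfng 153 and 153 CPM. Dll4 was at 121 and 117 CPM in cluster 8, 109 and 80.9 CPM in cluster 0 and 85.6 and 88.7 CPM in cluster 26, and the intervals of clusters 8 and 0 overlapped in the control and not in the mutant.

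Mfng was also high in 3 clusters where the Delta genes were lower. Cluster 12, which stayed unnamed and was led by Gal, Pou4f2, Dlx1 and Sp8 (170 control and 166 mutant cells), held 253 CPM of Mfng in control and 228 CPM in mutant, the highest level of Mfng among the neural retina clusters compared. The same cells held Dll3 at 51.0 and 76.2 CPM, 38 and 30 UMIs of Dll1, and Dll4 at 1.58 and 4.13 CPM. Of the retinal ganglion cell-like clusters, cluster 21 (led by Cntn2, Isl1 and Pou4f2) held Mfng at 135 and 117 CPM, and cluster 20 (led by Sncg, Nrn1 and Mapt) held it at 1.34 and 4.04 CPM. The third was cluster 24, unnamed, shallow (median 1258 UMIs) and with Tubb3, Pou4f2 and Ptf1a among its leading genes, which held Mfng at 140 and 122 CPM and Dll3 at 53.2 and 27.6 CPM, from 29 and 17 UMIs of Dll3. Median depth was similar in both ganglion cell-like clusters, at 15518 and 16069 UMIs in cluster 21 and 19349 and 19011 UMIs in cluster 20.

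**Figure D2:**
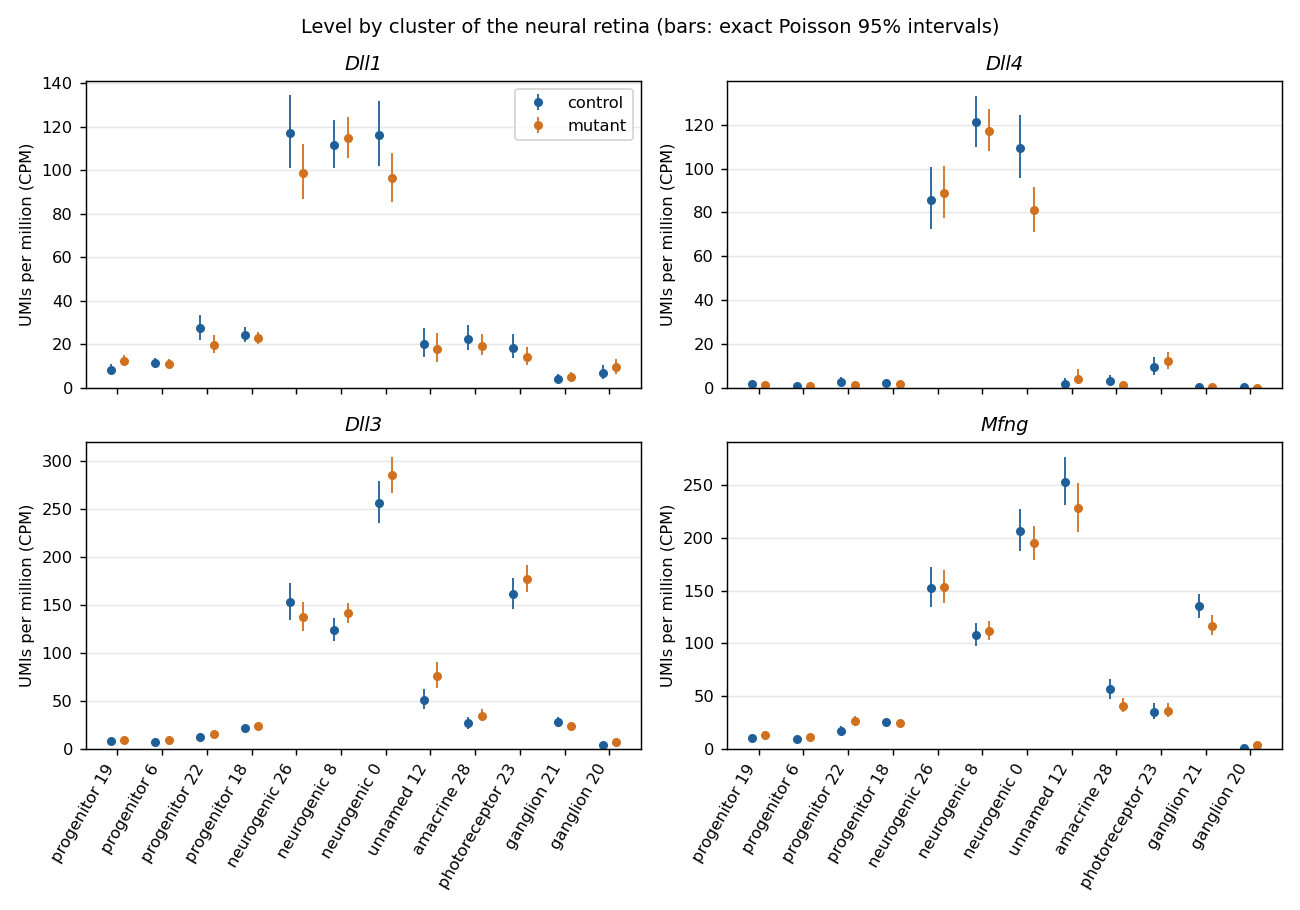
Level of Dll1, Dll4, Dll3 and Mfng, in CPM (vertical axis, scaled separately for each gene), by cluster of the neural retina in the control (blue) and mutant (orange) library, with exact Poisson 95% intervals. Cluster 24 is not plotted. Dll1 and Dll4 are highest in clusters 26, 8 and 0, Dll3 is also high in photoreceptor cluster 23, and Mfng is also high in clusters 12 and 21 and near 0 in cluster 20.

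Cells with a UMI of a ligand gene were compared with the other cells of the neurogenic class, all thinned to 2000 UMIs. The cells were dissociated, so which cells had touched is not known, and the cells without a UMI include cells whose UMIs were lost in thinning, since Dll4 was found in 47.4% of control cells before it and 19.4% after. Cells with a Dll4 UMI held much less Hes5, the main Notch target of retinal progenitors, than cells without one. In the control library, 126 cells with a Dll4 UMI held a mean of 0.921 Hes5 UMIs and 523 cells without one held 3.06, a ratio of 0.301 (0.247 to 0.364). In the mutant library the means were 0.794 in 170 cells and 3.37 in 800 cells, a ratio of 0.236 (0.197 to 0.280). A Hes5 UMI was found in 30.2% (22.3 to 39.0) of control cells with Dll4 and in 54.1% (49.7 to 58.4) of those without, and in 27.6% (21.1 to 35.0) against 55.4% (51.9 to 58.9) in the mutant. Both the mean and the share were thus lower with Dll4 in each library.

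The ratio for Dll4 was below 1 in each neurogenic cluster of each library. It was 0.248 in control and 0.168 in mutant cells of cluster 0, 0.157 and 0.243 in cluster 8, and 0.751 (0.554 to 1.00) and 0.352 (0.249 to 0.486) in cluster 26. Hes1, another Notch target, rested on few UMIs, with 3 in control cells with Dll4 (11.9 CPM against 76.5 CPM without it) and 13 in mutant cells with Dll4 (38.2 against 93.1 CPM). The proneural gene Neurog2 lay on the other side. It was 1.93-fold (1.75 to 2.14) higher in control and 1.77-fold (1.62 to 1.92) higher in mutant cells with Dll4. Atoh7 did not share this, at 1.18-fold (1.13 to 1.23) in control and 1.01-fold (0.966 to 1.05) in mutant cells with Dll4, and it was lower with Dll1, with ratios of 0.883 (0.839 to 0.928) and 0.897 (0.861 to 0.935). Notch1 did not differ beyond counting error, at 298 against 254 CPM in the control and 259 against 286 CPM in the mutant. Membership in a cluster and detection of a UMI are both read from the same cells, so these are descriptions.

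Dll1, Dll3 and Mfng showed smaller gaps. With a Dll1 UMI the Hes5 ratio was 0.714 (0.616 to 0.823) in control and 0.667 (0.598 to 0.742) in mutant cells, but the share of cells with a Hes5 UMI overlapped, at 44.5% with and 50.5% without Dll1 in the control and 46.0% and 51.6% in the mutant. In mutant Xist-positive cells lacking Y-linked UMIs the Dll1 ratio was 0.873 (0.730 to 1.04) at 2000 UMIs and 0.784 (0.705 to 0.871) at 4000 UMIs, and in mutant cluster 26 it was 1.13 (0.996 to 1.28) at 4000 UMIs. With a Dll3 UMI the ratio was 0.749 (0.667 to 0.839) and 0.893 (0.822 to 0.969). The share of cells with Hes5 was 35.3% (28.4 to 42.7) with Dll3 and 55.1% (50.4 to 59.6) without it in the control, and 44.1% and 53.5% with overlapping intervals in the mutant. At 2000 UMIs the Dll3 gap was seen in cluster 8, where the ratio was 0.379 (0.296 to 0.479) in control and 0.596 (0.506 to 0.698) in mutant cells, while in cluster 0 it was 0.962 and 0.980 and in cluster 26 it was 1.07 and 1.14. At 4000 UMIs this split by cluster was not kept, with ratios of 0.508 and 0.392 in cluster 8, 0.657 and 0.998 in cluster 0, and 0.741 and 0.628 in cluster 26.

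For Mfng the direction differed between the depths and between clusters. At 2000 UMIs its Hes5 ratio was 1.07 (0.959 to 1.19) in control and 1.23 (1.13 to 1.33) in mutant cells of the class, but within mutant clusters it was 1.85 in cluster 0, 0.761 in cluster 8 and 0.898 in cluster 26, and in mutant Xist-positive cells lacking Y-linked UMIs it was 0.915 (0.779 to 1.07) and, at 4000 UMIs, 1.32 (1.19 to 1.45). In cells thinned to 4000 UMIs it was 1.35 in control and 1.42 in mutant cells and above 1 in each of the 3 clusters of both libraries, from 1.15 to 1.48, and the Dll4 ratio was 0.224 and 0.295. In cells with Xist and without Y-linked UMIs, at 2000 UMIs, the Dll4 ratio was 0.299 and 0.112 (0.0708 to 0.170). At 4000 UMIs the mutant value in those cells was 0.312 (0.266 to 0.366), so it stayed below 1 while its size differed. Each depth is 1 random draw from its own set of cells, and the part of depth cannot be told apart from these.

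**Figure D3:**
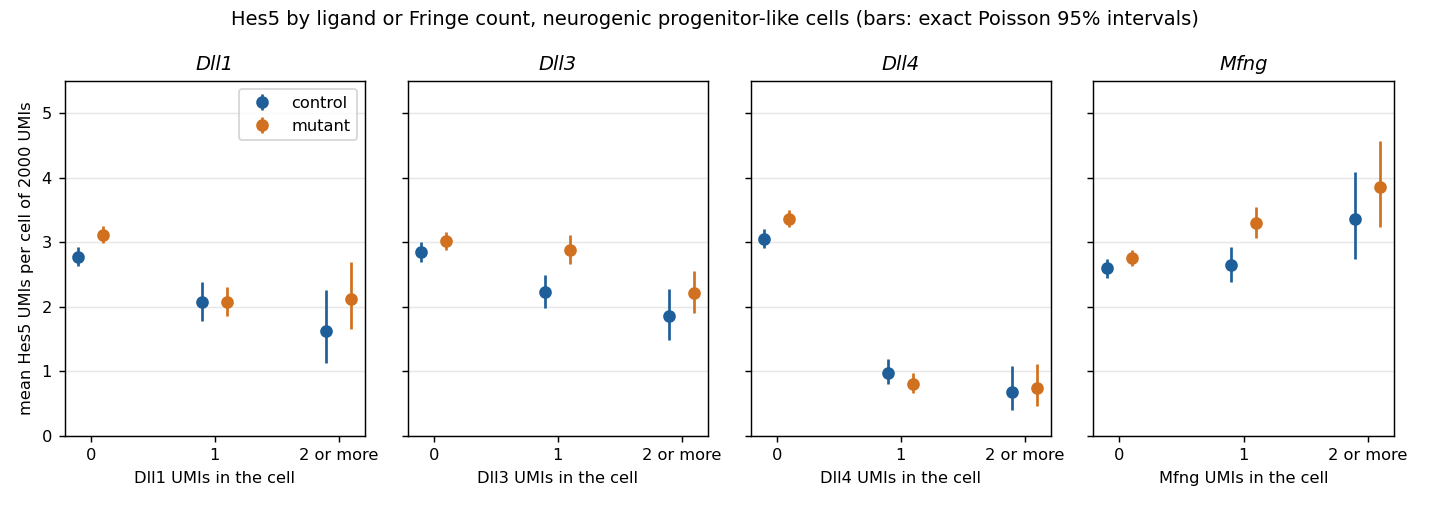
Mean Hes5 UMIs per neurogenic progenitor-like cell, each thinned to 2000 UMIs (vertical axis), in cells with 0, 1 or at least 2 UMIs of Dll1, Dll3, Dll4 or Mfng (horizontal axis), in the control (blue) and mutant (orange) library, with exact Poisson 95% intervals. Cells with 1 Dll4 UMI average 0.980 Hes5 UMIs in control and 0.807 in mutant, far below the 3.06 and 3.37 of cells without Dll4, and none of the other 3 genes plotted shows a gap of that size.

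Within the retinal progenitor-like class, cells with Dll1 held more Neurog2 RNA than the rest. Among retinal progenitor-like cells, 68 control and 110 mutant cells held a Dll1 UMI after thinning. Neurog2 was at 316 CPM in these control cells and 46.5 CPM in the other control progenitors, a 6.79-fold difference (4.77 to 9.47), and at 277 against 41.0 CPM in the mutant, a 6.76-fold difference (5.04 to 8.96). Hes1 was lower, with ratios of 0.608 (0.452 to 0.802) and 0.646 (0.523 to 0.789), while Hes5 was slightly higher, at 1.26-fold and 1.23-fold. Progenitors with a Dll3 UMI also held more Neurog2, at 2.65-fold (1.57 to 4.24) and 4.97-fold (3.47 to 6.96), and those with an Mfng UMI held 1.97-fold (1.70 to 2.26) and 1.47-fold (1.30 to 1.66) the Hes5 of the rest.

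Members were also compared for detection in the same neurogenic cells. Dll3 was found in 40.5% (31.8 to 49.6) of control cells with Dll4 and in 25.4% (21.8 to 29.4) of those without, and in 39.4% (32.0 to 47.2) against 29.6% (26.5 to 32.9) in the mutant, where the intervals just overlapped. For Dll1 and Dll4 the intervals overlapped in each library, with Dll4 found in 20.9% of control cells with Dll1 and 19.1% of those without, and in 15.3% and 18.1% in the mutant. Mfng was found in 32.9% of mutant cells with Dll3 and 24.2% of those without, and in 30.4% and 25.4% in the control, with overlapping intervals in the control only. In endothelial-like cells Jag2 was found in 7 of 16 control cells with Dll4 against 7.34% of those without, but in 1 of 17 mutant cells with Dll4 against 8.24%.

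Profiles were compared over the 14 named classes of at least 50 cells in each library, as Pearson correlations of log2(CPM + 1) over 28 class and library points, among 14039 genes with at least 200 UMIs. The points share libraries and depth, and the correlations are descriptions. The genes most like Dll1 were Zc3h12c, Hes6, Hmga1b and Zbtb18, with r from 0.836 to 0.871. Those most like Dll3 were Btbd17 at 0.942, Wdr66 at 0.916, and the neuronal transcription factors Neurod1 at 0.907 and Insm1 at 0.904. Dll4 was most like Ccm2l at 0.818, Cyyr1 at 0.797, Tmem255a at 0.748 and Apold1 at 0.747, and Mfng most like 4930555A03Rik at 0.795, with Lgi4, Tspan15 and Wdr66 at 0.748 to 0.760. Jag1 was nearest to the transcription factors Lef1 and Nr2f2, then Nox4 and Arf5, from 0.825 to 0.832, and Jag2 to Acer2 at 0.832, Edn1, which encodes endothelin, at 0.811, S100a16 and the junction gene Jup, both at 0.796. Hes6, Neurod1 and Insm1 are also among the markers that named the classes.

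Between genotypes the ligand genes of the neurogenic class differed little. The mutant over control ratio was 0.926 (0.846 to 1.01) for Dll1, 1.08 (1.00 to 1.16) for Dll3, 0.913 (0.832 to 1.00) for Dll4 and 0.994 (0.919 to 1.08) for Mfng. Of the 5 members with at least 20 UMIs over both libraries, 1 passed 1.5-fold, which was Jag1 with a ratio of 0.639 (0.431 to 0.946). Of all 11931 genes measured in this class 6.49% passed 1.5-fold in either direction. The median log2 ratio was -0.11 over the 5 members and -0.03 over all genes. In Xist-positive cells lacking Y-linked UMIs the log2 ratios were -0.02 for Dll1, 0.17 for Dll3, -0.06 for Dll4 and -0.04 for Mfng. In retinal progenitor-like cells none of the 6 members passed, against 5.41% of all genes. Ratios there ran from 0.740 (0.542 to 1.01) for Jag1 to 1.15 (1.02 to 1.30) for Mfng.

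Whole-library levels gave another picture. Over all kept cells Dll1 was 1.30-fold, Dll3 1.49-fold, Dll4 1.23-fold and Mfng 1.21-fold higher in the mutant, while Jag1 was at 0.943 and Jag2 at 1.10. The share of neurogenic progenitor-like cells was 5.68% in the control and 7.79% in the mutant library, and the retinal progenitor-like share was 20.4% and 27.4%. Their part in the whole-library ratios was not tested. Within single neurogenic clusters Dll4 was lower in the mutant in cluster 0, at 0.740 (0.616 to 0.890), and near 1 in cluster 8 at 0.966 and in cluster 26 at 1.04. Dll3 was at 1.14 (1.01 to 1.29) in cluster 8, 1.11 (0.996 to 1.24) in cluster 0 and 0.899 (0.763 to 1.06) in cluster 26. Dll1 was at 0.830 (0.698 to 0.988) in cluster 0.

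**Figure D4:**
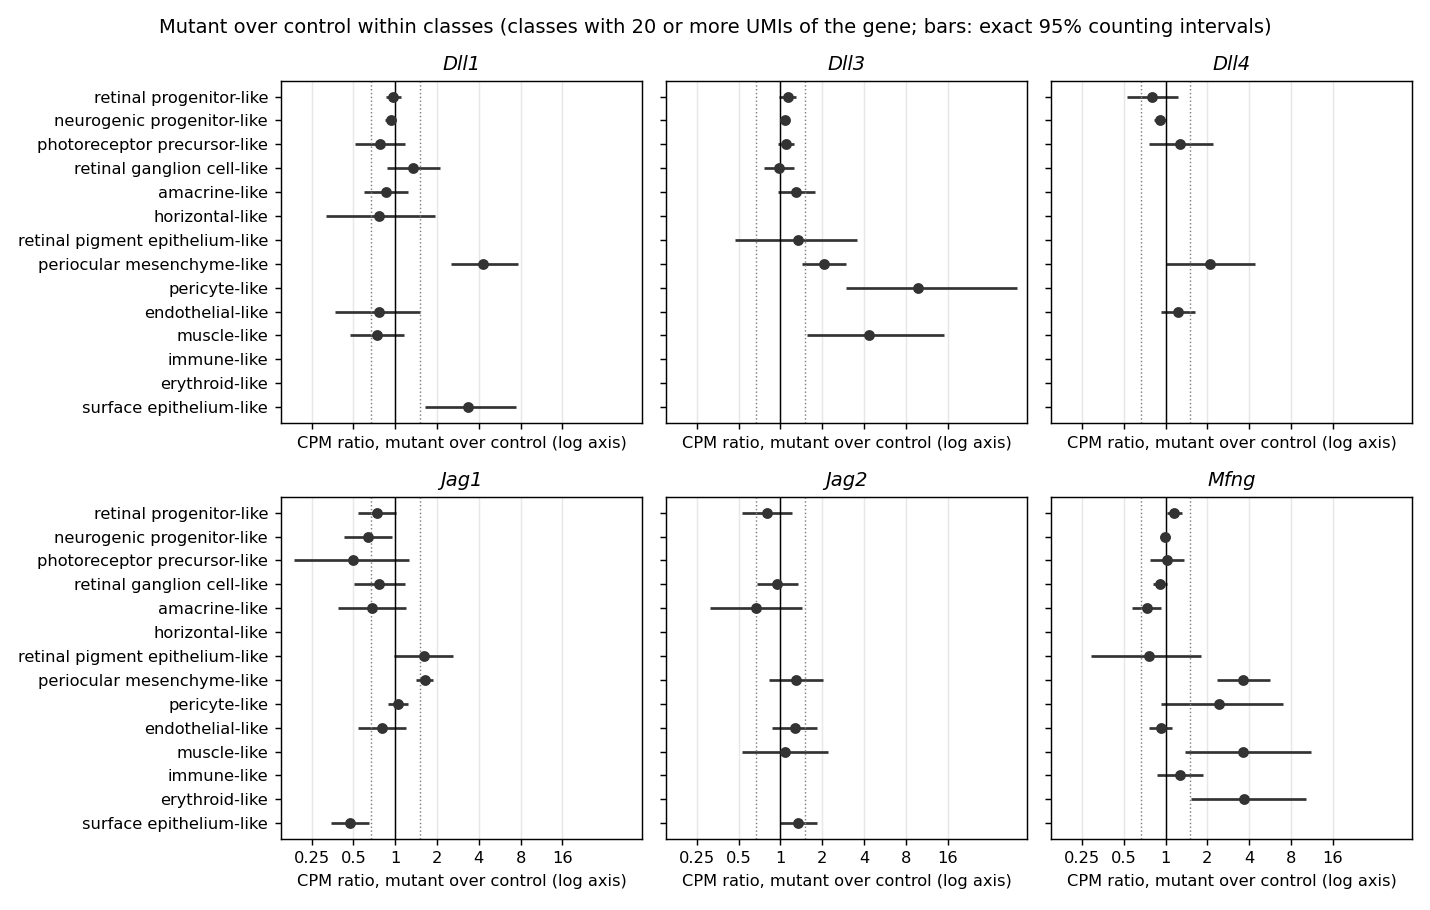
Ratio of CPM, mutant over control (horizontal log axis), for each gene in those of 14 classes where it had at least 20 UMIs over both libraries, with exact 95% counting intervals. The solid line marks 1 and the dotted lines mark 1.5-fold either way. Dll1, Dll3, Dll4 and Mfng lie near 1 in neurogenic progenitor-like cells, and larger ratios are found in mesenchyme-like, pericyte-like, muscle-like and surface epithelium-like cells and, for Mfng, in erythroid-like cells at 3.69 (1.53 to 10.2).

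The clearest difference of a member in the class that led in the control library was that of Jag1 in surface epithelium-like cells. In pericyte-like cells, which led in the mutant library, the Jag1 ratio was 1.05 (0.891 to 1.24). In surface epithelium-like cells Jag1 went from 75.1 CPM (110 UMIs in 82 cells) in control to 35.4 CPM (67 UMIs in 109 cells) in mutant, a ratio of 0.471 (0.343 to 0.644). The share of cells with a Jag1 UMI, unthinned at medians of 16052 and 15048 UMIs, was 56.1% (from 44.7) in control and 29.4% (up to 38.8) in mutant, and these bounds did not overlap. Thinned to 2000 UMIs the shares were 11.5% (5.41 to 20.8) and 6.86% (2.80 to 13.6), with overlapping intervals. The 5 richest cells held 38.2% and 41.8% of these UMIs. In Xist-positive cells lacking Y-linked UMIs the log2 ratio was -1.29 (-1.88 to -0.73). Jag2 in the same cells had a ratio of 1.34 (0.989 to 1.82). Dll1 went the other way, from 10 UMIs in 6 control cells to 43 UMIs in 28 mutant cells, a ratio of 3.33 (1.65 to 7.43). Of 3 members with at least 20 UMIs there, 2 passed 1.5-fold, and 17.6% of all 9855 genes did so.

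Retinal marker RNA also differed in those surface cells. The summed level of the 8 neurogenic markers was 177 CPM in control and 532 CPM in mutant surface epithelium-like cells, with all 8 of them higher in the mutant. The part of the marker RNA in the Dll1 and Jag1 ratios was not tested.

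In periocular mesenchyme-like cells 5 of 6 members were higher by over 1.5-fold in the mutant, where 5.91% of 14697 genes were higher by that much and 8.84% passed in either direction. The median log2 ratio was 1.05 over the 6 members and -0.01 over all genes. Dll1 went from 0.488 to 2.10 CPM, Dll3 from 1.36 to 2.81 CPM, Dll4 from 0.359 to 0.747 CPM and Mfng from 0.795 to 2.88 CPM, all low levels. The 8 neurogenic markers moved with them, summing to 108 CPM in control and 218 CPM in mutant mesenchyme-like cells with 8 of 8 higher, and to 71.8 and 194 CPM in erythroid-like cells with 8 of 8 higher. None of the 8 was at 0 in mesenchyme-like cells of either library. Their part in the result was not tested. With the erythroid-like level of each library subtracted, Mfng was below 0 in both libraries and Dll1 in the control. Dll3 and Jag1 remained higher by over 1.5-fold, and Dll4 turned from higher to lower by over 1.5-fold. The marker sums of erythroid-like cells were below those of mesenchyme-like cells in both libraries. Whether erythroid-like cells measure the free RNA of other classes was not tested. Mfng was at 0.918 CPM (0.369 to 1.89) in control and 3.39 CPM (2.15 to 5.09) in mutant erythroid-like cells, and Dll4 at 0.262 CPM (0.0318 to 0.948) and 0.737 CPM (0.239 to 1.72). The mesenchyme-like levels of Mfng and Dll4 lay within these intervals in both libraries, so neither was told apart from free RNA there, although both are among the 5.

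Jag1 was the member of the mesenchyme with a level well above that of erythroid-like cells. It measured 9.34 CPM (364 UMIs) in control and 15.3 CPM (430 UMIs) in mutant periocular mesenchyme-like cells, a ratio of 1.64 (1.42 to 1.89), and 0 and 3 UMIs in erythroid-like cells. Cluster 11, led by Nts, Akap12 and Cxcl12, scored nearly as high for pericyte markers (1.69) as for mesenchyme markers (1.75), so its class is uncertain. It held most of the Jag1 UMIs, at 21.9 CPM (239 UMIs) in control and 36.1 CPM (314 UMIs) in mutant, a ratio of 1.65 (1.39 to 1.96). In the other 4 mesenchyme clusters the ratios were 1.67 in cluster 3, 1.57 in cluster 4, 1.30 in cluster 5 and 0.963 in cluster 9. Retinal pigment epithelium-like cells, the class in which Myrf was highest, held Jag1 at 10.4 and 16.7 CPM, with an interval of the ratio from 0.975 to 2.62.

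In endothelial-like cells none of the 5 members with at least 20 UMIs passed 1.5-fold, against 13% of all genes there. The ratios were 1.22 (0.920 to 1.63) for Dll4, 1.26 (0.872 to 1.83) for Jag2, 0.807 for Jag1, 0.926 for Mfng and 0.763 for Dll1. Dll3 had fewer than 20 UMIs there and was not counted, with 1 UMI in control and 13 in mutant. Elsewhere Mfng was lower in mutant amacrine-like cells, with a ratio of 0.729 (0.576 to 0.923). Dll3 was higher in mutant pericyte-like cells, from 3 to 26 UMIs. In muscle-like cells Dll3 went from 5 to 18 UMIs, a ratio of 4.37 (1.56 to 15.1). Of the members with at least 20 UMIs, 2 of 3 passed 1.5-fold in pericyte-like and 2 of 4 in muscle-like cells. These were Dll3 and Mfng, higher in the mutant in both classes. Of all genes there 9.03% and 12.1% passed. The 8 neurogenic markers rose beside Dll3, from a sum of 102 to 307 CPM in pericyte-like cells with 8 of 8 higher. In muscle-like cells they went from 291 to 463 CPM with 7 of 8 higher. The 8 photoreceptor precursor markers rose in muscle-like cells from 20.7 to 75.0 CPM with 6 of 8 higher. The 8 retinal progenitor markers fell there from 710 to 624 CPM with 1 of 8 higher. The part of these markers was not tested.

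The other 36 genes of the pathway were followed in the same classes. In neurogenic progenitor-like cells 34 had at least 20 UMIs, of which 2 were past 1.5-fold, both higher in the mutant. These were the receptor gene Notch3 (1.91 and 3.29 CPM) and the ubiquitin ligase gene Mib2 (3.14 and 4.79 CPM), and the intervals of both ratios included 1. The median log2 ratio of the 34 was 0.04 and that of all genes was -0.03. The receptor gene Notch1 measured 252 and 273 CPM, the target Hes5 1198 and 1328 CPM, the target Hes1 80.1 and 82.8 CPM, the feedback inhibitor Nrarp 51.5 and 46.6 CPM, the Fringe gene Lfng 24.3 and 28.7 CPM, and Rbpj 415 and 423 CPM. These 2 of 34 stand beside 6.49% of all genes. In retinal progenitor-like cells 2 of 35 passed, against 5.41% of all genes, and these were the target Heyl at 8.62 and 13.0 CPM and the ligand-trafficking gene Neurl1b at 0.915 and 1.65 CPM. In endothelial-like cells 6 of 29 passed, against 13% of all genes, with Notch2, Mib2, Neurl1b and Spen higher and Hes5 and Dlk1 lower in the mutant. In periocular mesenchyme-like cells 6 of 36 passed, against 8.84% of all genes, and all 6 were higher in the mutant. These were Notch1 at 7.78 and 12.2 CPM, Hes5 at 10.9 and 29.7 CPM, Hey1 at 3.49 and 6.40 CPM, Nrarp at 1.62 and 3.24 CPM, Lfng at 1.26 and 2.38 CPM and Neurl1b at 1.18 and 2.20 CPM. Hes5 was at a like level in erythroid-like cells, at 10.6 and 26.4 CPM. In surface epithelium-like cells 4 of 27 passed, against 17.6% of all genes, with Hes5, Lfng and Maml3 higher and Pofut1 lower in the mutant. Endothelial-like cells also differed in the 8 neurogenic markers, which summed to 174 CPM in control and 359 CPM in mutant. Of these 7 of 8 were higher, and Sstr2 was at 0 in the control. The 8 retinal progenitor markers there went the other way, from 1408 to 1294 CPM with 4 of 8 higher. The 8 photoreceptor precursor markers went from 188 to 171 CPM with 2 of 8 higher. The part of these markers in the ratios was not tested.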

How the data were processed

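Eye cups were dissociated with papain and captured with 10x Genomics 3′ chemistry by the authors, whose deposited matrices hold raw, unscaled UMI counts for each gene in each cell. Per the labels, the processing notes name Cell Ranger 7.1.0, Seurat 4.1.1 and mm10, while the matrix headers give Cell Ranger 3.1.0.

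Barcodes with at least 200 genes and at most 15% mitochondrial UMIs were kept, and those with a Scrublet score over 0.2 (scanpy 1.11.5) were removed; the limit was set after seeing the scores, in place of the study's 2000-UMI cutoff. This took out 3.06% of control and 3.03% of mutant barcodes, fewer than the 9.55% and 10.4% expected, so doublets may remain. The automatic threshold called 366 and 0. Clustering used 1896 variable genes, 30 principal components, 15 neighbours and Leiden resolution 1.0 (leidenalg 0.10.2), with the 6 genes, the pathway and the naming markers left out. Clusters were named "-like" from marker lists. The score limit of 1.2 was set after seeing the data. Most unnamed cells were shallow, and class names can differ from the study's.

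CPM is a gene's UMIs summed over a class of one library, scaled by all UMIs of that class. Intervals are exact (Poisson, conditional binomial for ratios, Clopper-Pearson for shares) at 95% and computed with scipy 1.17.1. They cover counting error only, and UMIs within a cell are not independent. A fold needed at least 20 UMIs over both libraries. With 3 or fewer counts on both sides no fold is given. The step was tested on simulated counts. Positions come from GENCODE for GRCm38, and promoter windows matched 5 of the 6 genes. Genes named were the members, the pathway list and the 4 genes most like each member by profile. Leading classes, cluster 12, the clusters split by level and the Hes5 comparison were chosen after values were seen. The members and lists were chosen with earlier results of these data known. Alternatives are given at the end. Only e15.5 was analysed here.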

Additional observations from a re-analysis of the deposited data

Results flagged for a closer look

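Y-linked UMIs appeared in 41.8% of mutant cells and 0.0259% of control cells, and 24.1% of mutant cells carried Xist without them, against 71.7% of control cells. The mutant library thus held cells of both kinds and the control library nearly none with Y-linked UMIs. Y-linked genes are not among the genes compared, and their signal stood above its control level.

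Jag1 moved in opposite directions in different classes between the same 2 libraries. Its mutant over control ratio was 0.639 in neurogenic progenitor-like and 0.471 in surface epithelium-like cells and 1.64 in periocular mesenchyme-like cells. Mfng was at 0.729 in amacrine-like cells but at 1.15 in retinal progenitor-like, 3.62 in periocular mesenchyme-like, 3.64 in muscle-like and 3.69 in erythroid-like cells. The mesenchyme-like levels of Mfng, 0.795 and 2.88 CPM, lay within the intervals of the erythroid-like levels, 0.918 and 3.39 CPM. Those levels were taken as a measure of free RNA, a choice that was not tested. In erythroid-like cells 52.3% of 3518 genes passed 1.5-fold and the median log2 ratio of all genes was 0.58. The 8 neurogenic markers summed to 291 CPM in control and 463 CPM in mutant muscle-like cells with 7 of 8 higher, and to 108 and 218 CPM in mesenchyme-like cells. In muscle-like cells the 8 retinal progenitor markers fell from 710 to 624 CPM with 1 of 8 higher. The 8 photoreceptor precursor markers rose there from 20.7 to 75.0 CPM with 6 of 8 higher. The part of these markers in the Mfng ratios was not tested. In each case the counting interval lay on one side of 1. The differences between classes were not tested, since there was 1 library per genotype.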

How the results depend on the processing

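The mutant over control ratios of the 6 genes in their leading classes moved by less than their counting intervals in 68 of 74 alternative values, and the log2 ratio of a leading class over all other cells in 90 of 152. All values of the latter kept their sign. Jag1 in surface epithelium-like cells ranged from -1.36 to -0.75 on the log2 scale around a value of -1.08. The log2 ratio of Dll3 turned from 0.11 to -0.68 with cells over 2000 UMIs removed, a limit the study's methods state, with an interval from -2.73 to 1.30, and that of Dll4 went from -0.13 to -1.42. Clustering at Leiden resolution 0.6 gave 0.23 for Dll3 and 0.0044 for Dll4. Thinning gave 0.22 for Dll1 in place of -0.11, and a mitochondrial limit of 5% gave 0.93 for Jag2 in place of 0.42. The causes were not tested. No paired analysis was possible because there was 1 library per genotype.

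Leading class over all other cells moved as follows on the log2 scale, control before mutant where both moved. With doublets kept it was 3.47 and 3.07 for Dll1, 3.84 for Dll3 (control), 5.02 and 4.75 for Dll4 and 3.29 and 2.96 for Mfng. Without cells over 20000 UMIs it was 3.79 for Dll1 (control), 3.76 and 3.37 for Dll3, 4.84 and 5.01 for Jag2 and 2.75 for Mfng (control). Without cells over 2000 UMIs it was 4.57 and 3.11 for Dll1, 4.51 and 4.68 for Dll3, 5.82 for Dll4 (control), 5.63 for Jag2 (mutant) and 3.19 for Mfng (mutant). At Leiden resolution 0.6 it was 3.78 and 3.34 for Dll1, 3.82 for Dll3 (control), 5.23 for Dll4 (control) and 3.43 and 3.03 for Mfng. With all variable genes used for clustering it was 3.82 and 3.36 for Dll1, 3.63 and 3.20 for Dll3, 5.22 and 5.07 for Dll4 and 3.38 and 3.02 for Mfng. With Xist-positive cells without Y-linked UMIs it was 3.69 for Dll1 (mutant), 3.85 and 3.73 for Dll3 and 5.66 for Dll4 (mutant). Thinned, it was 3.65 for Dll1, 3.74 for Dll3, 5.01 for Dll4 and 2.70 for Jag1, all control. As a mean of per-cell CPM it was 3.35 for Dll1 (mutant), 3.68 for Dll3 (control), 5.00 and 5.04 for Dll4 and 2.71 and 2.57 for Mfng. With a mitochondrial limit of 5% it was 3.67 for Dll3 (mutant), 6.24 and 5.75 for Dll4, 3.46 for Jag1 (control), 3.54 for Jag2 (control) and 2.76 and 2.59 for Mfng. With erythroid-like CPM subtracted it was 3.62 for Dll3, 5.86 for Dll4 and 2.89 for Mfng, all mutant. Removing the expected share of doublets gave 5.81 and 5.56 for Dll4. Without the 5 richest cells per library Jag1 was at 2.59 and 1.36.

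Shares of leading-class cells with a UMI rose with depth by construction. At 4000 UMIs they were 34.1% and 32.8% for Dll1, 43.3% and 43.5% for Dll3, 27.7% and 29.0% for Dll4, 45.7% and 43.8% for Mfng, 23.3% for Jag1 (control) and 29.0% for Jag2 (mutant). Unthinned they were 59.1% and 58.1%, 67.5% and 69.4%, 47.4% and 46.4%, 73.7% and 72.7%, then 56.1% and 29.4% for Jag1 and 42.7% and 50.5% for Jag2.

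The Hes5 log2 ratio of neurogenic cells with Dll4 over those without was -1.73 in control and -2.08 in mutant. Alternatives chosen after seeing the data gave -2.16 and -1.76 at 4000 UMIs, -3.15 in mutant Xist-positive cells without Y-linked UMIs, -2.67 in control cluster 8, -2.58 in mutant cluster 0, and -0.41 and -1.51 in cluster 26. Pathway genes past 1.5-fold in neurogenic cells numbered 1 in place of 2 with at least 50 UMIs, with a 5% mitochondrial limit and when thinned, a different gene each (Mib2, Notch3 and Numbl). In retinal progenitor-like cells they numbered 1 with the 5% limit and 4 when thinned, and in endothelial-like cells 3 with at least 50 UMIs in place of 6. With the erythroid-like level subtracted, 3 members in place of 5 were past 1.5-fold in mesenchyme-like cells. Of these Dll3 and Jag1 were higher, as before, and Dll4 turned from higher to lower, from levels within the erythroid-like intervals.

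With cells over 2000 UMIs removed, 8 ratios could not be formed. Jag2 in neurogenic progenitor-like cells (4 and 10 UMIs) and Dll4 in retinal ganglion cell-like cells (2 and 2 UMIs) rested on few counts. Whether depth limited them was not tested. One library per genotype leaves the spread between embryos unknown, and remaining doublets can carry a gene into another class.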
